A study of Mus musculus with 10 samples.

Results

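The genes described here encode 10 transcription factors of the AP-1 group, namely the Jun proteins (Jun, Junb, Jund), the Fos proteins (Fos, Fosb, Fosl1, Fosl2) and 3 related factors (Atf3, Batf, Maff). They were chosen by symbol, and the brightest probe stood for each gene. They are 10 of the 19096 genes that could be named on the array, and all 10 passed the filter on dim probes, Fosl1 through the SCC arrays alone. RNA came from 5 whole lungs of Lkb1f/f mice, called wild type (WT) in the labels, and from 5 whole lung squamous cell carcinomas (SCC) of CCSPiCreLkb1f/f mice. All were B6.129 mice aged 13 months with no special treatment, and 1 single-colour Agilent array was run for each sample. Both groups carried the floxed Lkb1 alleles, and the SCC group alone carried iCre under control of CCSP, a gene of airway secretory cells. Lkb1 encodes a kinase that acts upstream of AMPK. The labels do not say that each sample came from a separate mouse, so p-values measure the spread between these samples.

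AP-1 is a dimer of basic leucine zipper proteins. A Jun protein pairs with itself or with a Fos or ATF protein, and the dimer binds the sequence TGACTCA or its longer relative TGACGTCA in the promoters and enhancers of genes for growth, stress responses and epithelial differentiation. Jun is phosphorylated by the JNK kinases, which lie downstream of the kinase MKK7 (Map2k7), and the JNK pathway was the subject of the study from which the arrays come. In squamous epithelium, Fosl1, Fosl2 and Junb are known for their part in keratinocyte differentiation.

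Several of these genes are controlled by the factors they encode, and for this reason the promoters of Jun, Atf3 and Maff are shown as RefSeq gives them on GRCm38.p6, from 250 bases before to 50 bases after the start of transcription, on the strand of the gene. Capitals mark 8-base matches to sites of the AP-1 and ATF type. The Jun promoter is at chr4:95052173-95052472 on the minus strand, that of Atf3 at chr1:191183284-191183583 on the minus strand, and that of Maff at chr15:79347270-79347569 on the plus strand.
Jun: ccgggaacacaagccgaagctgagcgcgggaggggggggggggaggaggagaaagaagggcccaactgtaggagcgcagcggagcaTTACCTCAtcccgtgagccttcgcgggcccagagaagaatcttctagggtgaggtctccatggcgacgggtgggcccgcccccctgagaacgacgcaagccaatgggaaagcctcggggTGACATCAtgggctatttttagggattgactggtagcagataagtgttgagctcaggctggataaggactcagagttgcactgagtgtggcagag
Atf3: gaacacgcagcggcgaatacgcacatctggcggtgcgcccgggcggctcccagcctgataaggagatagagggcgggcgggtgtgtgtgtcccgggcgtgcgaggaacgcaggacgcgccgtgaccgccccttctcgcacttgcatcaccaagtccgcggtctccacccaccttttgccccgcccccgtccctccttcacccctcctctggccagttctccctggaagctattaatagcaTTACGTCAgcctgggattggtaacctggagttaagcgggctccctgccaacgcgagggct
Maff: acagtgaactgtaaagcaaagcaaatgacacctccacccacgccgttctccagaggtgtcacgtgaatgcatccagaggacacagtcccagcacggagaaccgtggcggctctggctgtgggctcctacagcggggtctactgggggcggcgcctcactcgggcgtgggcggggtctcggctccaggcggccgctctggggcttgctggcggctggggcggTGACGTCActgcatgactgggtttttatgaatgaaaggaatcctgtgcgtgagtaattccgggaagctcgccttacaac

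The Jun promoter held TTACCTCA at bases -164 to -157 and TGACATCA at bases -45 to -38, counted from the start site. The Atf3 promoter held TTACGTCA at -10 to -3, and the Maff promoter shown held TGACGTCA at -29 to -22. A second annotated Maff promoter held TGACATCA at -45 to -38. Both strands were searched in the 11 promoters listed for 9 of the 10 genes. TGACGTCA was present for 1 of the 9 genes and in 1.79% of all 32851 mouse promoters of this length. TGACTCA, in 5.20% of all promoters, and the CArG box bound by serum response factor, in 1.63%, were present for none of the 9. The other 3 sequences were chosen for the search after the promoters had been read. TGACATCA was in 3.62% of all promoters, TTACCTCA in 0.889% and TTACGTCA in 0.499%. These matches describe letters in the windows, and no binding was measured.

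Levels are given as the log2 of the quantile-normalized signal, and a difference is SCC minus WT on that scale. A gene was called where limma's adjusted p was below 0.05 and the difference at least 2-fold. SCC replicate 5 was a bright array, with 90.2% of probes well above background against 71.0% to 74.5% on the other 9. The squamous label was checked against markers of squamous epithelium. All 9 tested were called higher in SCC, beside 9.92% of all tested probes. For 4 of them (Dsg3, Krt6a, Pkp1, Sprr1b) no WT array gave a signal well above background. These 4 and Ivl passed the filter on dim probes through the SCC arrays alone, so their calls are no support for the label. The mean level of the 9 markers was lowest among tumours in SCC replicate 2, at 9.83, where the remaining 4 tumours had 13.4 to 13.8 and the lungs 3.96 to 4.64. The arrays lay on 3 slides. Slide 1 held only WT arrays and slide 3 only SCC arrays, while slide 2 held WT replicate 5 and SCC replicates 1 to 3.

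Of the 10 AP-1 genes, Jun was called lower in SCC, and 4 genes, Fosl1, Atf3, Fosl2 and Junb, were called higher. The other 5 were not called. Fosl1 entered the test because it was bright in SCC, so its place in this and the next counts is no support for a direction. Over all 30374 tested probes 22.9% were called, 9.92% higher and 13% lower. By the adjusted p without a fold limit, 6 of the 10 genes passed higher and 2 lower, beside 22.4% and 26.6% of all tested probes (49% in all). All 5 SCC arrays lay above all 5 WT arrays for 4 genes (Junb, Fos, Fosl1, Fosl2), which held for 16.3% of all tested probes. They lay below for 2 genes (Jun, Jund), which held for 20.9%. The groups thus did not overlap for 6 of the 10 genes and for 37.2% of all tested probes. The median difference over the 10 genes was 0.86, beside -0.09 over all tested probes, whose quartiles were -0.60 and 0.40. Whole lung and whole tumour are mixtures, and in such bulk samples fewer cells of a type and less RNA per cell cannot be told apart.

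**Figure D1:**
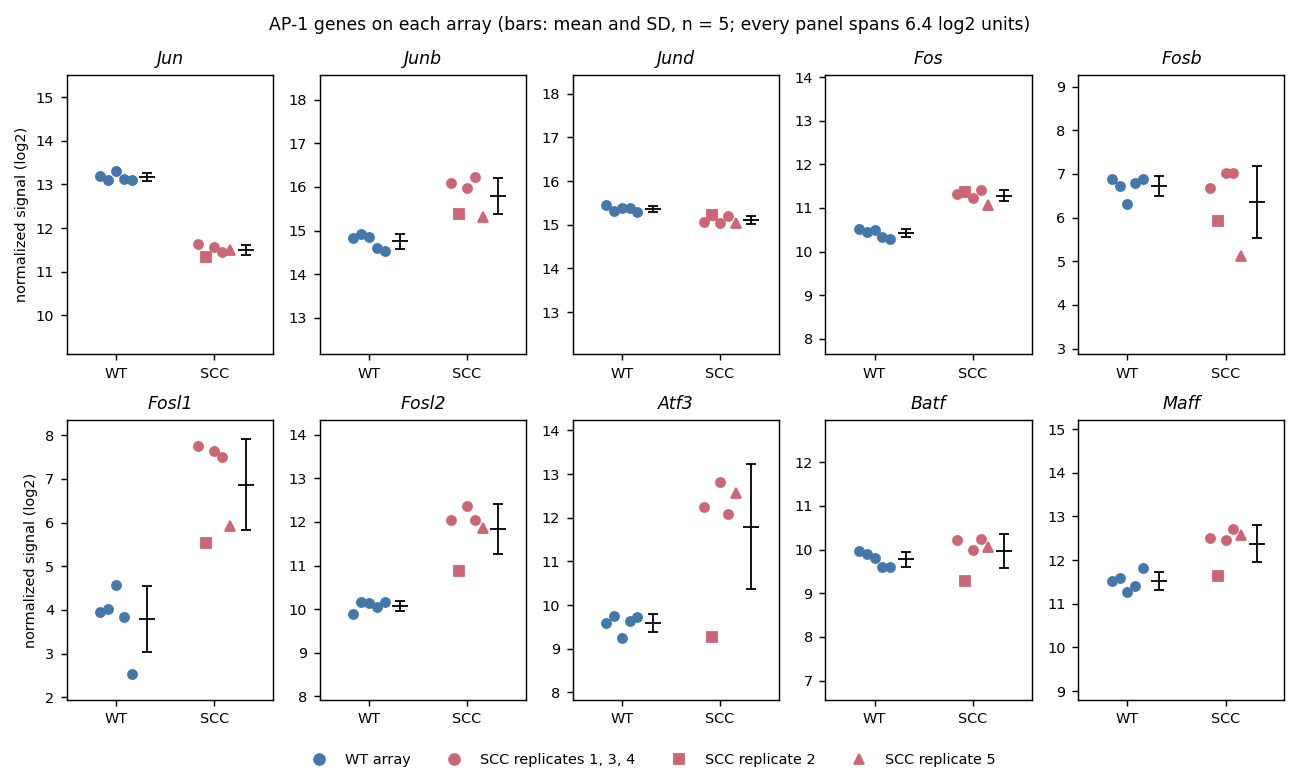
Normalized log2 signal of the 10 AP-1 genes on each of the 10 arrays, with the mean and SD of each group (n = 5) beside the points and the same span of log2 units in every panel. Jun lies at 13.1 to 13.3 on the WT arrays and at 11.3 to 11.6 on the SCC arrays, while SCC replicate 2 (square) falls to the WT level for Atf3 at 9.27.

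Jun, the founding member of AP-1 and the principal target of JNK, had levels of 13.20, 13.10, 13.30, 13.13 and 13.09 on WT replicates 1 to 5. On SCC replicates 1 to 5 they were 11.65, 11.34, 11.57, 11.45 and 11.49. Every tumour lay more than 1 log2 unit below every lung, and the 5 tumours differed from each other by at most 0.31. The means were 13.17 ± 0.087 in WT and 11.50 ± 0.117 in SCC (SD, n = 5 each). Jun was thus 3.17-fold lower in SCC, a difference of -1.67 ± 0.088 (SE) with a limma adjusted p of 1.79e-06. The exact two-sided permutation p was 0.00794, the smallest that 5 against 5 arrays can give. The difference was -1.63 without SCC replicate 2 and -1.66 without SCC replicate 5, and on slide 2 alone it was -1.58.

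Markers of several normal lung cells were lower in the tumours together with Jun. Among endothelial markers 7 of 8 were called lower, and their mean level was 13.95 to 14.2 on the WT arrays and 11.53 to 12.55 on the SCC arrays. T cell markers were called lower for 5 of 7, with mean levels of 8.12 to 8.80 in WT and 6.77 to 7.48 in SCC. B cell markers were called lower for 4 of 5, with 8.65 to 9.30 in WT and 7.59 to 7.73 in SCC. Called lower were also 2 of 8 alveolar, 3 of 6 airway, 3 of 7 fibroblast, 3 of 5 smooth muscle and 5 of 6 cardiac muscle markers, beside 13% of all tested probes, and none of these was called higher. The cardiac marker Actn2 passed the filter on dim probes through the WT arrays alone, so its call is no support for the count. By the adjusted p alone 1 alveolar marker (Aqp5) and 2 fibroblast markers (Col1a1, Col3a1) passed in the higher direction. No marker of these lists was below background on every array. SCC replicate 2 kept the highest endothelial level of the tumours, 12.55 against 11.5 to 11.8 on the other 4, and had the lowest Jun level. The part of cell composition in the Jun difference was not tested beyond these values.

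Junb, which can act in place of Jun or against it, had levels of 14.83, 14.93, 14.85, 14.61 and 14.53 on WT replicates 1 to 5 and of 16.10, 15.38, 15.96, 16.22 and 15.32 on SCC replicates 1 to 5. The groups did not overlap, and SCC replicates 2 and 5 lay closest to the WT lungs. Junb was 2.06-fold higher in SCC, a difference of 1.04 ± 0.195 (SE, limma adjusted p = 0.00173). A second Junb probe gave 2.64-fold, a difference of 1.40 ± 0.142 (limma adjusted p = 5.09e-05). On that probe SCC replicate 5 stood at 15.81, among the other tumours. The first probe was close to the 2-fold limit, and its difference was 0.99 without WT replicate 5, 0.97 without SCC replicate 1 and 0.94 without SCC replicate 4.

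Jund, the most evenly expressed Jun protein in most tissues, had the smallest difference of the family. Its levels were 15.45, 15.31, 15.38, 15.38 and 15.30 on WT replicates 1 to 5 and 15.06, 15.23, 15.03, 15.20 and 15.05 on SCC replicates 1 to 5. All SCC arrays lay below all WT arrays, by a small margin. The difference was -0.25 ± 0.080 (SE, limma adjusted p = 0.027) and 1.19-fold, so Jund was not called. With each array scaled to its 75th percentile, the difference was -0.08 (limma adjusted p = 0.446). Leaving out 1 array took the adjusted p above 0.05 in 5 of the 10 cases (WT replicates 1, 3 and 4, SCC replicates 1 and 3), where the differences were -0.23, -0.24, -0.24, -0.23 and -0.23.

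Of the 4 Fos genes, Fosl1 and Fosl2 were called higher in SCC, Fos passed the adjusted p but not the fold limit, and Fosb passed neither. Fosl1 encodes Fra-1, a Fos protein without the strong activation domain of Fos. Its levels were 3.96, 4.03, 4.57, 3.83 and 2.53 on WT replicates 1 to 5 and 7.76, 5.54, 7.63, 7.50 and 5.93 on SCC replicates 1 to 5. The groups did not overlap, and SCC replicates 2 and 5 lay below the other tumours. Its probe was well above background on 1 of 5 WT arrays and on 5 of 5 SCC arrays, so neither a fold nor a p is read from these data. The fitted difference was 3.09 ± 0.527 (SE). With the normexp background correction the difference was 1.03. SCC replicate 2, lowest for Fosl1, was also the tumour with the lowest squamous markers, and without it the difference was 3.42.

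Fosl2 encodes Fra-2, the closest relative of Fra-1. Levels were 9.89, 10.15, 10.15, 10.04 and 10.16 on WT replicates 1 to 5 and 12.05, 10.88, 12.36, 12.04 and 11.85 on SCC replicates 1 to 5. All SCC arrays lay above all WT arrays, and SCC replicate 2 was again the lowest tumour. Fosl2 was 3.38-fold higher, a difference of 1.76 ± 0.242 (SE, limma adjusted p = 0.000297), and 2.00 without SCC replicate 2. A second and much dimmer Fosl2 probe gave 1.74 ± 0.455 (limma adjusted p = 0.0106), with 4 of 5 tumours above every lung.

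Fos, the partner that forms the classical AP-1 dimer with Jun, had levels of 10.51, 10.46, 10.50, 10.35 and 10.29 on WT replicates 1 to 5 and of 11.32, 11.37, 11.24, 11.42 and 11.08 on SCC replicates 1 to 5. The tumours were all higher and lay within 0.34 of each other. The difference was 0.86 ± 0.093 (SE, 1.82-fold, limma adjusted p = 7.08e-05), under the fold limit. Each tumour thus had more Fos signal and less Jun signal than any lung.

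Fosb levels were 6.87, 6.72, 6.32, 6.79 and 6.88 on WT replicates 1 to 5 and 6.68, 5.91, 7.02, 7.02 and 5.13 on SCC replicates 1 to 5. The groups overlapped, with SCC replicates 2 and 5 below the lungs and replicates 3 and 4 above them. The difference was -0.36 ± 0.351 (SE, limma adjusted p = 0.41), and it turned to 0.19 without SCC replicates 2 and 5, to 0.01 with 75th percentile scaling and to 0.11 with array quality weights. No direction can be given for Fosb from these arrays.

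**Figure D2:**
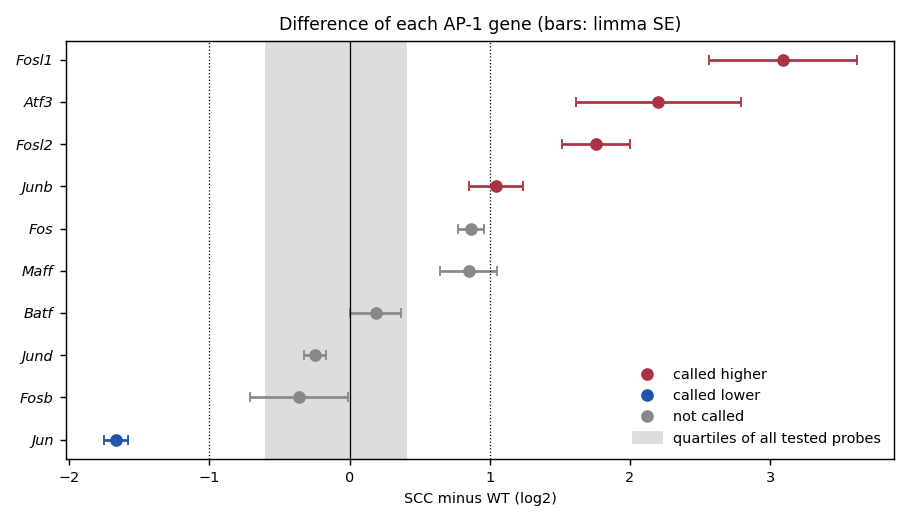
Difference between SCC and WT (log2) of each AP-1 gene with the standard error of the limma fit. The grey band spans the quartiles of all tested probes (-0.60 to 0.40) and dotted lines mark 2-fold; 4 genes from Junb (1.04) to Fosl1 (3.09) are called higher and Jun (-1.67) is called lower.

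Of the 3 related factors, Atf3 was called higher in SCC, Maff passed the adjusted p but not the fold limit, and Batf passed neither. Atf3 is a stress-induced factor that pairs with Jun proteins. Its levels were 9.60, 9.76, 9.24, 9.64 and 9.73 on WT replicates 1 to 5 and 12.24, 9.27, 12.82, 12.08 and 12.56 on SCC replicates 1 to 5. In 4 tumours Atf3 lay more than 2 log2 units above every lung, and in SCC replicate 2 it lay within the WT range. The difference was 2.20 ± 0.591 (SE, 4.60-fold, limma adjusted p = 0.0119, exact permutation p = 0.0397). Without SCC replicate 2 it was 2.83 (limma adjusted p = 1.74e-06).

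Maff is a small Maf protein, which lacks an activation domain. Its levels were 11.53, 11.60, 11.28, 11.41 and 11.82 on WT replicates 1 to 5 and 12.51, 11.63, 12.46, 12.72 and 12.57 on SCC replicates 1 to 5. Only SCC replicate 2 fell inside the WT range. The difference was 0.85 ± 0.204 (SE, 1.80-fold, limma adjusted p = 0.00681), and without SCC replicate 2 it was 1.04, past the fold limit. Batf, a factor of lymphoid and myeloid cells that pairs with Jun proteins, had levels of 9.97, 9.89, 9.80, 9.60 and 9.61 on WT replicates 1 to 5 and 10.22, 9.28, 9.99, 10.24 and 10.06 on SCC replicates 1 to 5. SCC replicate 2 lay below every lung and the other 4 tumours above every lung. The difference was 0.19 ± 0.184 (SE, limma adjusted p = 0.422), and without SCC replicate 2 it was 0.35 (limma adjusted p = 0.0175).

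Like Atf3, Maff and Batf, the mean levels of myeloid markers were lowest among the tumours in SCC replicate 2, as was that of the squamous markers given above. The mean level of 6 neutrophil markers was 10.25 in SCC replicate 2, 12.5 to 12.6 in the other 4 tumours and 10.23 to 11.15 in the lungs. That of 7 macrophage markers was 11.96 in SCC replicate 2, 13.2 to 13.4 in the other tumours and 12.15 to 12.61 in the lungs. Neutrophil markers were called higher in SCC for 4 of 6 and macrophage markers for 2 of 7, beside 9.92% of all tested probes. By the adjusted p alone the macrophage markers Csf1r (-0.50) and Marco (-0.75) passed in the lower direction. Marco was not lowest in SCC replicate 2, at 14.12 there against 13.71 in SCC replicate 1. Each of the 13 passed the background flag on all 10 arrays. Their part in the Atf3, Maff and Batf values was not tested.

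Jun was then set against each of the other 9 genes within each array, as the log2 ratio of Jun to the partner relative to its WT mean. The comparison was chosen with the direction of Jun known. The ratio to Fos was -2.42, -2.78, -2.41, -2.71 and -2.33 on SCC replicates 1 to 5, against -0.10 to 0.06 on the WT arrays. It was the tightest of the 9 relative to its size, with a mean change of -2.53 ± 0.095 (SE). The change was -3.87 ± 0.617 (SE) relative to Atf3 and -3.42 ± 0.224 (SE) relative to Fosl2. Relative to Fosl1, whose probe was dim in the lungs, it was -4.76 ± 0.531 (SE), and with the normexp background correction -2.67, smaller than those relative to Atf3 (-3.66) and Fosl2 (-3.26) under that correction. Relative to Junb the change was -2.71 ± 0.179 (SE), to Maff -2.51 ± 0.206 (SE) and to Batf -1.85 ± 0.157 (SE).

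For Junb, Jund, Fos, Fosl2, Atf3, Batf and Maff, all 5 tumours lay below all 5 lungs, which gives an exact two-sided permutation p of 0.00794 for each, the smallest possible and not adjusted over the 9 pairs. The same order held for Fosl1, but its probe passed the filter through the SCC arrays alone, so no p is read from that ratio. Jund is the partner with little change of its own, and the ratio to it changed by -1.42 ± 0.096 (SE). For Fosb, 4 of 5 tumours lay below every lung, with SCC replicate 5 at -0.09, and the change was -1.30 ± 0.375 (SE, exact permutation p = 0.0317). With slide as a block it was -1.23 and no longer passed, while the ratios to Junb, Jund, Fos, Fosl2, Atf3, Batf and Maff did. The 9 ratios share the Jun probe, so they are not independent of each other. Jun alone separated the groups, with a difference of -1.67. A partner with no change and little spread would thus give a ratio change near -1.67 and the same p. The share of all probes whose ratio to Jun separates the groups was not computed, so the separation is not particular to these partners. A ratio within an array shows unequal change and does not tell which of the 2 genes changed.

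**Figure D3:**
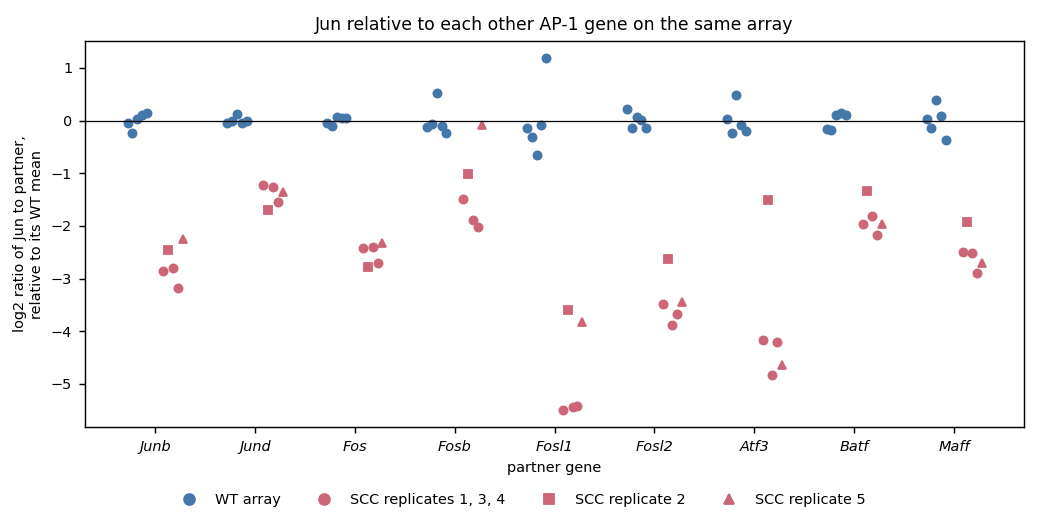
Log2 ratio of Jun to each of the other 9 AP-1 genes on the same array, relative to the mean of the 5 WT arrays (line at 0). Every SCC array lies below every WT array for 8 partners, and for Fosb SCC replicate 5 (triangle) lies at -0.09, among the WT arrays.

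The spread among tumours also set the genes apart. The range over the 5 SCC arrays was 0.20 for Jund, 0.31 for Jun and 0.34 for Fos. It was 0.91 for Junb, 0.95 for Batf, 1.10 for Maff, 1.48 for Fosl2, 1.89 for Fosb, 2.21 for Fosl1 and 3.55 for Atf3. SCC replicate 2 was the lowest tumour for 6 of the 10 genes (Jun, Fosl1, Fosl2, Atf3, Batf, Maff) and SCC replicate 5 for 3 (Junb, Fos, Fosb). Without SCC replicate 5 the differences were 1.16 for Junb, 3.33 for Fosl1, 1.75 for Fosl2 and 2.01 for Atf3. Without both arrays, 6 genes were called, Jun lower and Junb, Fosl1, Fosl2, Atf3 and Maff higher, beside 7890 of the 30374 tested probes (3675 higher, 4215 lower).

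Slide was also fitted as a fixed block. The comparison then rests on slide 2, with 1 WT and 3 SCC arrays. Jun (-1.58, limma adjusted p = 0.00378) was then called lower as before, and Fos (1.02, limma adjusted p = 0.014) was called higher. Fosl1, at 4.45, was set there against WT replicate 5, its dimmest lung (2.53), and is given as a value. Junb (1.29), Fosl2 (1.61) and Atf3 (1.72) kept their direction with limma adjusted p of 0.0658, 0.0683 and 0.349. Maff, at 0.38, had an adjusted p of 0.495.

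Genes whose centred levels over the 10 arrays were nearest to those of Jun were Nkd1, an inhibitor of Wnt signalling, at a root mean square distance of 0.11 log2 units, Slfn5 at 0.11, Ablim3, an actin-binding LIM protein, at 0.12, Pltp, the phospholipid transfer protein, at 0.13, and Chst7, a sulfotransferase, at 0.15. They were found among 14110 genes, and all 5 were lower in SCC, by 1.51 to 1.76 log2 units, as the choice by likeness requires. For Fosl1, which had the largest fitted difference of the other AP-1 genes except with normexp (1.03, under Atf3, Fosl2 and Junb), the probe was not well above background on 4 of 5 WT arrays, so these distances rest in part on dim signal. The nearest were Cenpf at 0.52, Esco2 at 0.53, Cdk1 at 0.55, Shcbp1 at 0.55 and Cep55 at 0.56. Cenpf, Cdk1 and Cep55 encode proteins of mitosis and cell division, and Esco2 acts in the cohesion of sister chromatids. Among the AP-1 genes themselves the nearest pairs were Junb with Fos at 0.25, Junb with Maff at 0.33 and Fos with Maff at 0.35.

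Other proteins that pair with or resemble AP-1 were called about as often as probes at large. Of 15 such bZIP genes 13 were tested, of which 1 was called higher, 1 lower and 11 were not called, beside 9.92% and 13% of all tested probes, with a median difference of -0.35. By the adjusted p alone 3 passed higher and 5 lower, beside 22.4% and 26.6%. Batf3, known for its part in dendritic cells, was 2.54-fold higher in SCC, 1.34 ± 0.439 (SE, limma adjusted p = 0.0289), and was not called without SCC replicate 5. Bach2, a repressor expressed in lymphocytes, was 2.50-fold lower, with a difference of -1.32 ± 0.222 (SE, limma adjusted p = 0.00095). With slide as a block neither was called, and Batf2 was called lower (-2.22). Over all arrays Batf2 differed by -0.64 ± 0.391 (SE, limma adjusted p = 0.195). Its highest lung level, 12.15, was on WT replicate 5, the 1 lung of slide 2. Jdp2, a repressor that pairs with Jun, differed by 1.18 ± 0.502 (SE, limma adjusted p = 0.0764) and was called higher without SCC replicate 2 (1.72, limma adjusted p = 3.01e-06). Batf2 and Jdp2 were named after their values were seen.

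Of 13 kinases upstream of AP-1, all tested, none was called higher and 1 was called lower, beside 9.92% and 13% of all tested probes, with a median of 0.18. Mapk10, which encodes JNK3, was lower by a fitted difference of -2.63 ± 0.80 (SE), with 2 of 5 SCC arrays well above background. It passed the filter through the WT arrays alone, so its call is no support for a direction. Its levels were 5.85, 9.14, 7.97, 7.20 and 7.31 on WT replicates 1 to 5, lowest and highest on the same lungs as the cardiac marker Myh6, with 10.06, 14.03, 12.77, 12.01 and 12.50. On SCC replicates 1 to 5 Mapk10 stood at 4.13, 5.66, 3.73, 3.58 and 7.25 and Myh6 at 8.02, 9.84, 5.67, 6.80 and 7.62, so the highest tumour was not the same for both. The part of cardiac tissue in the difference was not tested. Mapk10 was not called with slide as a block, while Map2k1 (1.08) and Rps6ka3 (1.15) were then called higher. Over all arrays Map2k1 differed by 0.96 ± 0.110 (SE), under the fold limit, and Rps6ka3 by 0.18 ± 0.259 (SE). Without SCC replicate 2 Map2k1 was called higher at 1.005. Rps6ka3 had its lowest lung level, 10.02, on WT replicate 5, the 1 lung of slide 2. Map2k1 and Rps6ka3 were named after their values were seen. By the adjusted p alone 5 of the 13 kinases passed higher and 3 lower, beside 22.4% and 26.6% of all tested probes. Mapk8, encoding JNK1, differed by 0.36 ± 0.113 (SE, limma adjusted p = 0.025), and Mapk9, encoding JNK2, by -0.29 ± 0.131 (SE, limma adjusted p = 0.089). Map2k7 differed by -0.12 ± 0.114 (SE, limma adjusted p = 0.402). These last 3 kinases were named after their values were seen, and an mRNA level says nothing of kinase activity.

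Of 16 ligases and transcription factors that regulate AP-1, 14 were tested, of which none was called higher, 3 were called lower and 11 were not called, beside 9.92% higher and 13% lower of all tested probes, with a median of -0.15. The lowest were Mef2c (2.87-fold, -1.52 ± 0.096 (SE), limma adjusted p = 4.31e-06), a MADS box factor that can drive Jun transcription, and Trib2 (2.78-fold, -1.48 ± 0.300 (SE), limma adjusted p = 0.00283), a scaffold for the COP1 ubiquitin ligase. The third was Mef2a, 2.53-fold lower, named after its value was seen. With slide as a block Mef2c and Mef2a were still called and Trib2 was not.

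Of 25 genes commonly described as AP-1 targets, 23 were tested, of which 13 were called higher, 1 lower and 9 were not called, beside 9.92% and 13% over all tested probes, and the median was 1.36. Of the 13, Il6, Ivl and Mmp10 passed the filter on dim probes through the SCC arrays alone and are no support for the count. Mmp12, the macrophage elastase, was 82.1-fold higher, 6.36 ± 1.10 (SE, limma adjusted p = 0.00111). Its levels were 5.53 to 6.16 in the lungs and 12.91, 7.33, 13.68, 13.50 and 13.23 in SCC replicates 1 to 5. Without SCC replicate 2 the Mmp12 difference was 7.56. Il6, an inflammatory cytokine, was higher by a fitted difference of 3.67 ± 0.449 (SE), with 3 of 5 WT arrays well above background, so its fold is not fixed. Vegfa, an angiogenic growth factor, was 4.03-fold lower, -2.01 ± 0.222 (SE, limma adjusted p = 8.08e-05). SCC replicate 2 had the lowest mean level of the list among the tumours, 9.63 against 10.9 to 11.1, beside 8.86 to 9.33 in the lungs. The mean levels of the neutrophil and of the macrophage markers given above, and Mmp12, were likewise lowest there, and the part of these cells in the list's values was not tested. With slide as a block Vegfa stayed called lower and 5 targets were called higher, namely Il6 and, named after their values were seen, Areg, Itgb4, Ivl and Timp1. Involucrin (Ivl) is on this list and among the squamous markers.

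Of the immediate early genes outside AP-1, which respond to the same growth and stress signals, all 17 were tested. Of these 3 were called higher, 2 lower and 12 were not called, near the 9.92% and 13% of all tested probes, with a median of -0.27. Nr4a2, an orphan nuclear receptor, was 2.95-fold higher, 1.56 ± 0.270 (SE, limma adjusted p = 0.00115), and Egr2, a zinc finger factor, was 2.65-fold higher, 1.40 ± 0.463 (SE, limma adjusted p = 0.03). The third, Socs3, a cytokine-induced inhibitor named after its value was seen, was 2.58-fold higher. Klf2, a factor of quiescent endothelium and lymphocytes, was 4.85-fold lower, -2.28 ± 0.158 (SE, limma adjusted p = 7.20e-06). Ccn1, a matrix-associated protein, was 2.40-fold lower, -1.26 ± 0.144 (SE, limma adjusted p = 9.88e-05). With slide as a block Socs3, Klf2 and Ccn1 were still called and Nr4a2 and Egr2 were not, and Egr2 was not called without SCC replicate 5 either.

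**Figure D4:**
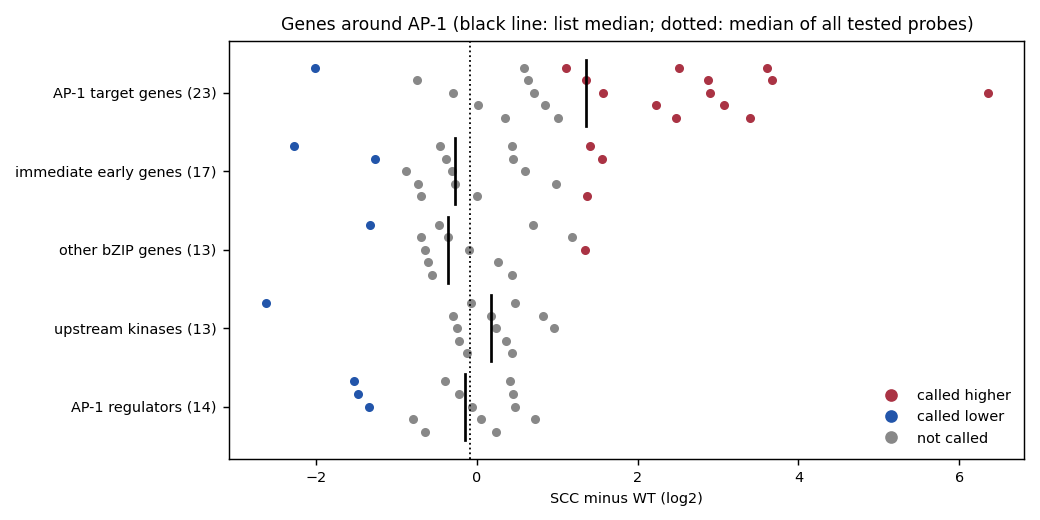
Difference between SCC and WT (log2) of each tested gene on 5 lists around AP-1, with the number tested in brackets, the list median as a black line and the median of all tested probes (-0.09) as a dotted line. The 23 target genes have a median of 1.36 and 13 are called higher, while the other 4 medians lie between -0.35 and 0.18.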

How the data were processed

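Per the labels, total RNA was labelled with Cy3 and hybridised to Agilent arrays, read by the authors with Feature Extraction 12. The deposited scanner files give a background-subtracted processed intensity per spot on a linear scale. A deposited table of log2 values, made by the authors, followed log2 of the quantile-normalized processed intensity (r at least 0.999947 per array), and it served as an alternative and to choose the brightest probe per gene. Control and outlier spots were dropped, spots of a probe averaged, and 41174 probes quantile-normalized on the log2 scale. For 113 probes 1 or more arrays had no unflagged spot. No spot was saturated. Probes well above background on at least 4 arrays of 1 group were tested (30374), with limma 3.58.1 in R 4.3.3 (all 10 arrays, no covariates, two-sided) and Benjamini-Hochberg adjustment. Single values and ratios were compared by an exact two-sided permutation test. With a block, array weights or the methods' t-test, ratios were instead compared by the t-test of a linear model. The study's methods name an analysis of variance, run here for 2 groups as the methods' t-test. Accessions gave symbols for 28223 probes (68.5%) through RefSeq genes of GRCm38.p6. Without a mean signal in the files, normexp used the median signal. The fit was tested on simulated data of 30374 probes with 200 changed by 2 log2 units, of which 147 (73.5%) were recovered, with 8 false calls. The simulated noise was independent between probes, with no slide effect and no shift shared by an array. These rates therefore do not carry over to the real arrays. Any 2 arrays differed by an SD of 0.35 log2 units or more, while the median SD of repeated spots was at most 0.132 on any array. Repeated spots hold no noise of labelling or hybridisation, so these values cannot tell whether 2 arrays shared an RNA sample. The number of arrays limits the precision.

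Members, lists, named genes and tests were chosen with earlier results of these data known, and the study names Jun from these arrays, so neither is independent evidence. Genes named beyond the AP-1 group are, per list, up to 2 called genes with the largest positive and up to 2 with the largest negative difference, and the 5 genes nearest to Jun and to Fosl1. Others (Jdp2, Batf2, Mapk8, Mapk9, Map2k7, Map2k1, Rps6ka3, Mef2a, Socs3, Areg, Itgb4, Ivl, Timp1, Mmp10 and markers) were named after their values were seen. The values of 1 gene of a list are not reported here, and it was left out of the counts of that list.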

Additional observations from a re-analysis of the deposited data

Results flagged for a closer look

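Among 24 groups of 5 arrays (12 probes of the 10 genes in WT and in SCC), 3 had an end array whose gap to the next was larger than 0.71 of the range of the group. By chance about 1 in 20 groups does so. All 3 were low values of SCC replicate 2. For Atf3 the gap was 0.792 of the range, from 9.27 to 12.08. For Maff it was 0.759, from 11.63 to 12.46, and for Batf 0.745, from 9.28 to 9.99.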

How the results depend on the processing

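Of 239 alternative values for differences of single AP-1 genes, 213 kept their direction and side of the threshold, 20 lost their pass, 3 gained one (Batf) and 3 reversed. The reversals were all Fosb, which was 0.0117 with 75th percentile scaling, 0.11 with array quality weights and 0.19 without SCC replicates 2 and 5. Of 197 for the Jun ratios, 187 kept it and 10 lost it, 9 on slide 2 alone and Jun to Fosb with slide as a fixed block. Jun passed in 23 of 24 alternatives, at -1.70 to -1.58. Of probes, 6954 were called (3014 higher, 3940 lower). Normexp called 4036 (1933 higher, 2103 lower), no fold requirement 14878 (6790 and 8088), slide as a fixed block 2989 (1402 and 1587), and leaving out 1 array 6385 to 8135. AP-1 genes called, 5 in the report, were 4 (Junb under 2-fold) to 6 (Maff gained) with 1 array left out, 8 (6 higher, 2 lower) without the fold requirement and 3 (2 higher, 1 lower) with slide as a block. On slide 2 alone limma called 0 probes (0 higher, 0 lower) and 0 AP-1 genes, with 5835 probes at an unadjusted p below 0.05, and 0 of 9 Jun pairs, since 1 array against 3 cannot give a permutation p below 0.25. With 75th percentile scaling the median difference of all probes moved from -0.0903 to 0.0318 and the calls to 3504 higher and 3080 lower (53.2% higher against 43.3%). By the methods' t-test 5867 probes passed at 0.01 unadjusted and 6525 after Benjamini-Hochberg. The filter on all 10 arrays gave no value for Fosl1. The lists under slide as a block, and without SCC replicates 2 and 5, were alternatives added after the data were seen.

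Replicate numbers did not pair the samples (correlations of same-numbered arrays -0.103 to 0.00867, and no array matched its own number best). With the replicate block 6571 probes were called (2911 higher, 3660 lower), 5 AP-1 genes were called, and Jund (-0.25, limma adjusted p = 0.102) was the single AP-1 gene to lose its pass.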
